A study of Picromerus lewisi with 6 samples.

Results

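The innate immunity genes of the venom gland of Picromerus lewisi were examined in adults and in nymphs of instar 5. Picromerus lewisi is a predatory stink bug of the family Pentatomidae, and its venom glands are salivary glands whose secretion is injected into insect prey. There were 3 adult and 3 nymph libraries, and the labels give no genotype, treatment or sex and do not say whether a library came from 1 animal or from a pool. With no word on separate animals, every p-value here rests on differences among single libraries, and these may be technical. Members were the transcript clusters whose best protein match, in the NR or the Swiss-Prot description, held a term for an immune gene, such as lysozyme, defensin, peptidoglycan, spaetzle, toll-like or hemocytin. The rule found 47 of 22242 clusters, and no match to a serine protease or a laccase had to be dropped.

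Insects have no antibodies and rely on innate immunity. Receptors that bind peptidoglycan or beta-1,3-glucan of microbial walls start a protease cascade that cuts the cytokine Spaetzle, the ligand of Toll. Toll signals to transcription factors of the NF-kappaB family such as Dorsal, which switch on antimicrobial peptides, chiefly in the fat body and in blood cells (hemocytes). Lysozymes, which cut peptidoglycan, phenoloxidase, which makes melanin, and scavenger receptors, lectins and thioester proteins, which mark or bind particles for uptake, complete the response. Salivary glands of insects also make lysozymes and antimicrobial peptides, and some lysozymes of sap-feeding and predatory bugs serve digestion.

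Not every member is an immune gene. The term thioester also matched 8 thioesterases, enzymes of lipid and ubiquitin metabolism that share only the word. The term dorsal matched 2 clusters for Sog and 1 for a tolloid-like protease, which act in dorsal-ventral patterning, and 1 dorsal root ganglia homeobox cluster. The term peptidoglycan matched a LysM-domain cluster and Cluster-11337.0, an ompA family cluster whose leading match is a spider entry and whose Swiss-Prot match is a bacterial lipoprotein. Without these 14 clusters, 33 carried the name of an immune gene. The separation was made on the names, after the values had been seen. The terms relish, antimicrobial and phenoloxidase subunit each matched 0 members. The leading protein match came from the stink bugs Halyomorpha halys, Nezara viridula and Plautia stali in 27, 14 and 5 of the 47 members, and from no moth, mouse or human in any. Members had a median length of 745 bases, against 589.5 bases over all clusters, and 8 were shorter than 400 bases.

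Levels are FPKM, in which fragment numbers are divided by the length of the cluster and by the mapped total of its library. Low FPKM move in steps of 1 fragment, and from these steps each library was found to hold 13343544 to 18656807 fragments in clusters of 400 bases or more. Values of a stage are listed in the order of replicates 1, 2 and 3. The libraries differed in how much they detected: clusters with an FPKM of at least 1 were 22.2%, 81.6% and 39.0% of all across adults and 63.1%, 48.8% and 52.6% across nymphs. Genes for venom proteins were at a summed rescaled FPKM from 86714 to 327525 in adults and from 68992 to 131881 in nymphs over 70 clusters, so the gland's own markers were present in every library. An FPKM of 0 is given only as listed at 0. For stage tests, FPKM were divided by a factor per library that was 0.2835, 1.643 and 1.559 across adults and between 0.9902 and 1.361 across nymphs. Rescaled FPKM of adult replicate 1 therefore stand well above the deposited ones. In these bulk libraries, fewer cells of a type and less RNA per cell cannot be told apart.

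Among the 33 immune-named clusters, 7 reached an FPKM of at least 1 in all 6 libraries, and 12 did so in only 1 or 2 libraries. Across adults 13, 23 and 18 of the 33 reached that level, and across nymphs 24, 15 and 13. These counts were highest in nymph replicate 1 and adult replicate 2, which also detected the most clusters of all kinds. Together they made up 0.00503%, 0.0290% and 0.0276% of all FPKM across adults and 0.0136%, 0.0123% and 0.0056% across nymphs. By rescaled FPKM, 12 of the 33 were highest in nymph replicate 1, 8 in adult replicate 3 and 7 in adult replicate 1, with 3, 2 and 1 in adult replicate 2 and nymph replicates 2 and 3. Of all clusters, 11.3%, 22.7% and 12.4% were highest in adult replicates 1, 2 and 3, and 26.7%, 13.7% and 13.2% were highest in nymph replicates 1, 2 and 3. Nymph replicate 1 also held the most sequence matching mouse or human, at a summed rescaled FPKM of 433 over 34 clusters against 0.909 to 1.48 in the other two nymph libraries and 10.5 to 148 in adults. The leading match of every member was from neither species, and the part of that material in the levels of nymph replicate 1 was not tested.

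**Figure D1:**
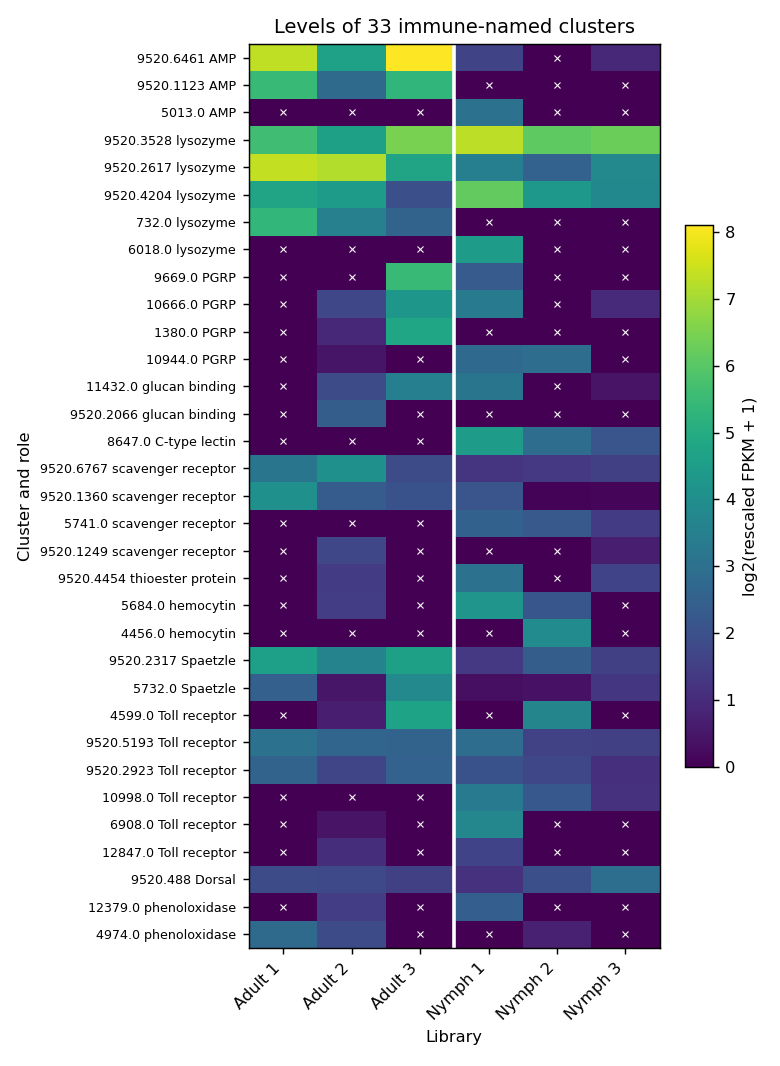
Level of each of the 33 immune-named clusters (rows, by role; AMP is antimicrobial peptide and PGRP is peptidoglycan recognition protein) in the 6 libraries (columns), as log2(rescaled FPKM + 1), with a cross where the deposited FPKM is 0. Of the 33 clusters, 7 reach an FPKM of at least 1 in all 6 libraries and 12 in only 1 or 2.

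Antimicrobial peptides held the most positive differences of all tested members. Of their 3 clusters, 1 rose in adults, where 0.234% of all tested clusters passed in either direction. Another lay above every nymph library without passing the test, and the defensin was seen in a single nymph library. The antibacterial peptide Cluster-9520.6461, whose match is also named hemiptericin, was at 45.7, 39.3 and 429 FPKM in adult replicates 1, 2 and 3 and at 2.2, 0 and 0.9 in nymph replicates 1, 2 and 3. It was covered by 317, 306 and 4042 fragments in the adult libraries and by 18, 0 and 8 in the nymph libraries. Every adult library was above every nymph library, and adult replicate 3 held most of the fragments. Its rescaled FPKM was 161, 23.9 and 275 across adults and 2.15, 0 and 0.909 across nymphs, and its log2 difference, adult minus nymph, was 5.83 ± 0.86 SE (limma adjusted p = 0.026). With single libraries left out, the adjusted p was 0.039 without adult replicate 3, 0.183, 0.056, 0.082, 0.118 and 0.085 without adult replicates 1 and 2 and nymph replicates 1, 2 and 3, and the log2 difference ran from 5.02 to 6.76 (limma). It also missed the threshold with a pseudocount of 0.1 (limma adjusted p = 0.138) and without trend and robust (limma adjusted p = 0.079).

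Cluster-9520.1123 matched the same protein of Halyomorpha halys. It was at 12.4, 9.92 and 61.5 FPKM in adult replicates 1, 2 and 3, from 54, 51 and 368 fragments, and was listed at 0 in all 3 nymph libraries. The stages did not overlap, but the test was not passed (fitted log2 difference 4.55 ± 0.78 SE, limma adjusted p = 0.054). It met the filter of FPKM of at least 1 in 3 libraries through the adult libraries alone, so its stages had to differ, and the difference and p are given as a description. The same holds for the C-type lysozyme and, through the nymph libraries, for Cluster-8647.0, Cluster-10998.0, Cluster-5741.0 and Cluster-5415.0, described later. Here and below, a fitted difference against libraries listed at 0 depends on the pseudocount of 1 and is no bound on the change. Both clusters carry the C-terminal region of attacin, a domain of glycine-rich peptides active against bacteria, as their Pfam match. At 785 and 600 bases, they may belong to a single gene or to near-identical copies that share reads, so they do not count as independent. The ratio of the longer to the shorter cluster was 3.68, 3.96 and 6.98 in adult replicates 1, 2 and 3, and was highest in adult replicate 3. The only defensin, Cluster-5013.0, a small cysteine-rich peptide that damages bacterial membranes, was at 7.3 FPKM in nymph replicate 1 from 28 fragments and listed at 0 in the other 5 libraries. It did not reach the filter and was not tested.

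The fat body is the main source of antimicrobial peptides in insects, and its markers did not all move alike. Of 16 fat body clusters, 5 encoded vitellogenins, yolk proteins made by the adult female fat body. Their summed rescaled FPKM was 55.0, 2.60 and 56.7 across adults, and all 5 were listed at 0 in every nymph library. The antimicrobial peptides summed to 205, 29.9 and 315 across adults and to 9.3, 0 and 0.909 across nymphs. Both rescaled sums were lowest among adults in adult replicate 2, but both were divided by the same library factors. In deposited FPKM the antimicrobial peptides summed to 58.1, 49.2 and 490 across adults, so adult replicates 1 and 2 were close before rescaling. The whole fat body list, which includes a vitellogenin receptor and 4 clusters whose leading match is a moth, ran from 2.86 to 85.4 in adults and from 35.0 to 42.2 in nymphs, and 4 of its 5 tested clusters lay below 0. Hexamerin (Cluster-9520.5895), a storage protein of the fat body, was at 2.04, 0.34 and 2.09 FPKM across adults and 18.0, 22.1 and 13.4 across nymphs. The hemocyte list of 8 clusters, 4 of them members, ran from 42.8 to 71.4 in adults and from 20.1 to 47.7 in nymphs. Its clusters did not move alike either, with 3 of 4 tested above 0 and 1 below. Annulin (Cluster-9520.5961) was at 8.24, 36.2 and 82.3 FPKM across adults and 10.7, 17.25 and 17.7 across nymphs. Hemocytin Cluster-5684.0 and Cluster-4456.0 reached 18.1 and 19.0 FPKM in single nymph libraries, against at most 2.93 in adults. The part of fat body or blood cells in the difference of the antimicrobial peptides was not tested.

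**Figure D2:**
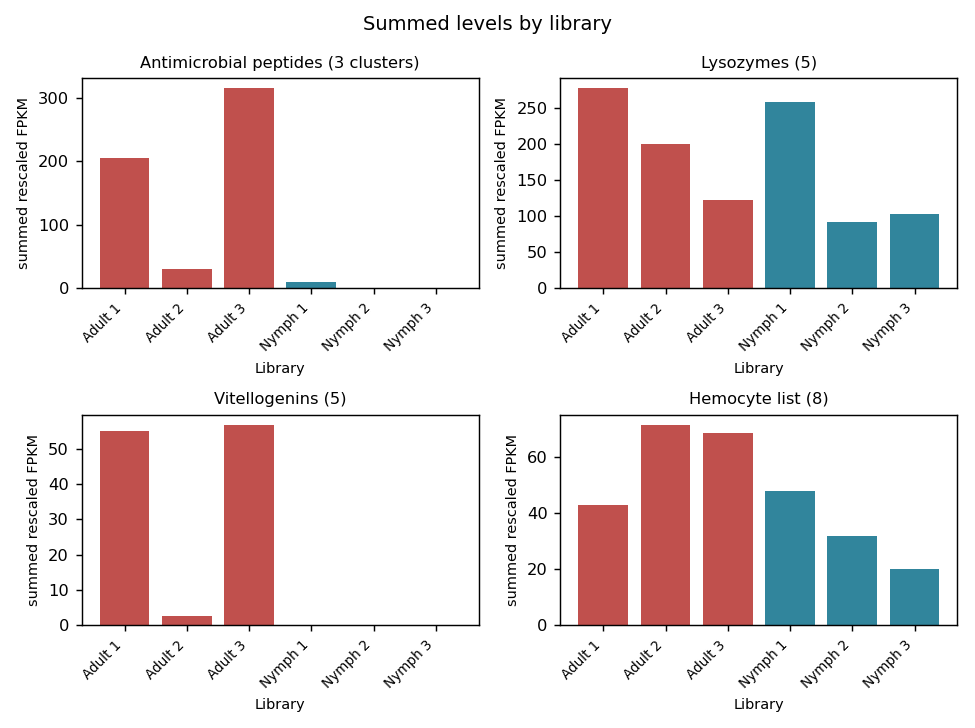
Summed rescaled FPKM (y axis, from 0) in each library (x axis; red adult, blue nymph) of the antimicrobial peptide, lysozyme, vitellogenin and hemocyte clusters, with the number of clusters in brackets. Antimicrobial peptides reached 205, 29.9 and 315 and vitellogenins 55.0, 2.60 and 56.7 in adult replicates 1, 2 and 3, while lysozyme sums of the stages overlap. Before rescaling, the antimicrobial peptides summed to 58.1, 49.2 and 490 in these 3 libraries. The vitellogenins are 5 of the 16 clusters of the fat body list, which did not all move alike. Of the 5 tested clusters of that list, 4 lay below 0.

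Lysozymes summed higher than antimicrobial peptides in 5 of the 6 libraries, and their tested members lay on both sides of 0. Of 5 clusters, 4 were tested and 0 passed, with 2 at an unadjusted p under 0.05 (limma), against 9.05% of all tested clusters. The C-type lysozyme among these 2 met the filter through the adult libraries alone. The C-type lysozyme Cluster-732.0, of the class that includes egg-white lysozyme, was at 11.5, 17.4 and 7.79 FPKM in adult replicates 1, 2 and 3 (55, 97 and 51 fragments) and listed at 0 in all nymph libraries. The stages did not overlap (fitted log2 difference 3.83 ± 0.80 SE, limma adjusted p = 0.116). The B-type lysozyme Cluster-9520.2617 was at 46.2, 237 and 39.9 FPKM in adult replicates 1, 2 and 3 and at 10.5, 6.66 and 12.8 in nymph replicates 1, 2 and 3. All adult libraries again lay above all nymph libraries, at a rescaled FPKM of 111 ± 74.5 (SD, n = 3) against 9.37 ± 4.10, with a log2 difference of 3.14 ± 0.74 SE (limma adjusted p = 0.182). Without adult replicate 3, its adjusted p was 0.032 and the log2 difference 3.92 (limma).

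Both other tested lysozymes had negative differences and overlapped between the stages. The I-type lysozyme Cluster-9520.3528, of the invertebrate class with a destabilase domain, had the highest FPKM of the group in 4 of 6 libraries. It was at 13.6, 38.8 and 139 FPKM in adult replicates 1, 2 and 3 and at 160, 92.3 and 76.3 in nymph replicates 1, 2 and 3. The stages overlapped through adult replicate 3 (log2 difference -0.99 ± 0.61 SE, limma adjusted p = 0.725). Cluster-9520.4204 carries the same Pfam domain as the B-type lysozyme, a glycosyl hydrolase of family 25, and matches lysozyme M1 in Swiss-Prot and an uncharacterized protein of Halyomorpha halys. It was at 7.2, 35.2 and 4.58 FPKM across adults and 72.3, 26.0 and 12.6 across nymphs, with overlap (log2 difference -1.03 ± 0.85 SE, limma adjusted p = 0.763). The 2 clusters of this domain therefore lay on opposite sides of 0, but the difference between them was not tested. Cluster-6018.0, named putative lysozyme, was at 21.7 FPKM in nymph replicate 1 and listed at 0 in the other 5 libraries. Summed over the 5 clusters, rescaled FPKM was 277, 200 and 123 across adults and 259, 91.8 and 103 across nymphs, and the stages overlapped.

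**Figure D3:**
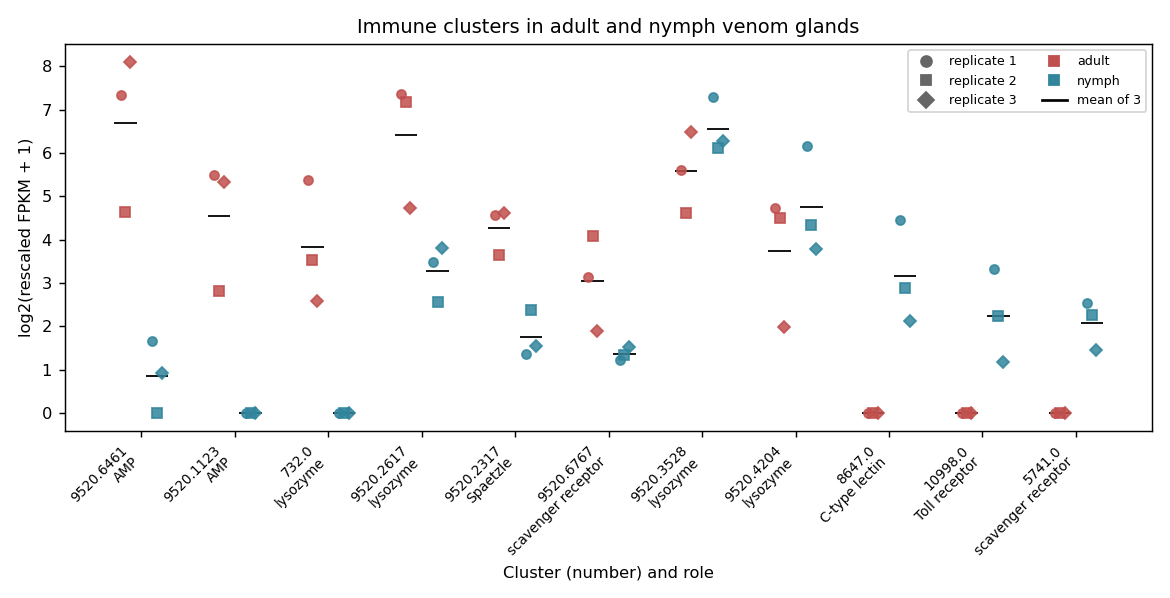
Level of 11 immune clusters (x axis, cluster number and role) in the 3 adult (red) and 3 nymph (blue) libraries as log2(rescaled FPKM + 1) (y axis), with 1 symbol per replicate and a bar at the mean of 3. The first 6 clusters have all adult above all nymph libraries, lysozymes Cluster-9520.3528 and Cluster-9520.4204 overlap, and the last 3 were listed at 0 in every adult library.

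Peptidoglycan recognition proteins, the sensors of bacterial walls, were seen in few libraries, with the highest levels in adult replicate 3. Of 4 such clusters, 1 was tested. Cluster-10666.0, peptidoglycan recognition protein L1, was at 0, 3.81 and 28.9 FPKM in adult replicates 1, 2 and 3 and at 9.62, 0 and 0.98 in nymph replicates 1, 2 and 3 (log2 difference 0.55 ± 1.19 SE, limma adjusted p = 0.903). Cluster-9669.0, matching the intracellular sensor PGRP-LE of Drosophila, reached 68.6 FPKM in adult replicate 3, had 4.07 in nymph replicate 1 and was listed at 0 elsewhere. Cluster-1380.0, matching the secreted form SC1 of Drosophila, was at 41.0 FPKM in adult replicate 3 and 1.42 in adult replicate 2 and listed at 0 elsewhere. Adult replicate 3 was thus the highest library for 3 of the 4, and it was also the highest for the antibacterial peptide. Cluster-10944.0 went the other way, at 5.9 and 8.8 FPKM in nymph replicates 1 and 2 and 0.6 in adult replicate 2. All 4 clusters were shorter than 500 bases and 3 were shorter than 400, a length at which FPKM compare less well between libraries.

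Other binding proteins were each detected in part of the libraries, and 0 of those tested passed (limma). Only 1, the C-type lectin, had an unadjusted p under 0.05 (limma), against 9.05% of all tested clusters. The lectin met the filter through the nymph libraries alone. Of 2 clusters for beta-1,3-glucan-binding protein, the sensor of fungal walls, Cluster-11432.0 was at 0, 4.48 and 16.0 FPKM across adults and 8.06, 0 and 0.34 across nymphs (log2 difference 0.61 ± 1.11 SE, limma adjusted p = 0.880), and Cluster-9520.2066 was at 6.9 FPKM in adult replicate 2 and listed at 0 elsewhere. The C-type lectin Cluster-8647.0, of a family that binds sugars on cell surfaces, was at 21.5, 8.72 and 3.35 FPKM in nymph replicates 1, 2 and 3, from 419, 212 and 77 fragments, and listed at 0 in all adult libraries. The stages did not overlap, and the test was not passed (fitted log2 difference -3.16 ± 0.79 SE, limma adjusted p = 0.218). It had the most negative difference of all 31 tested members. Markers of cuticle and epidermis were also higher in nymphs, where 35 clusters summed to a rescaled FPKM of 136 to 588 against 16.1 to 55.5 in adults, with all 12 tested clusters below 0. Muscle markers, 54 clusters, summed to 309 to 630 in nymphs against at most 306 in adults, with 20 of 27 tested clusters below 0. The part of both tissues in the levels of the members listed at 0 in adults was not tested. The only thioester-containing protein, Cluster-9520.4454, which matches a complement-like factor of the mosquito Anopheles gambiae, was at 0, 2.69 and 0 FPKM across adults and 7.22, 0 and 2.07 across nymphs (limma adjusted p = 0.761). Hemocytin, a clotting protein of hemocytes, had 2 clusters, of which Cluster-5684.0 was at 2.93 FPKM in adult replicate 2 and 18.1 and 4.71 in nymph replicates 1 and 2 (log2 difference -1.64 ± 1.06 SE, limma adjusted p = 0.730), and Cluster-4456.0 was at 19.0 in nymph replicate 2 alone.

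Of 4 scavenger receptor clusters, 3 were tested, 0 passed and 3 had an unadjusted p under 0.05 (limma), against 9.05% of all tested clusters. Among these 3, Cluster-5741.0 met the filter through the nymph libraries alone. Class B receptors are CD36-like proteins that bind lipids and microbes, and class F is represented by a single cluster. The classes were not compared by a test. Cluster-9520.6767 of class B was at 2.22, 26.1 and 4.19 FPKM in adult replicates 1, 2 and 3 and at 1.38, 2.1 and 1.86 in nymph replicates 1, 2 and 3 (log2 difference 1.67 ± 0.70 SE, limma adjusted p = 0.502). Its stages did not overlap, but in deposited FPKM the gap was only from 2.1 in nymph replicate 2 to 2.22 in adult replicate 1. With libraries set to an equal total, its stages overlapped (log2 difference 1.35, limma adjusted p = 0.998). Cluster-9520.1360 of class B was at 4.47, 6.78 and 4.88 FPKM across adults and 3.43, 0.07 and 0.07 across nymphs (log2 difference 2.06 ± 0.86 SE, limma adjusted p = 0.499). Its stages did not overlap in deposited FPKM and did overlap after rescaling. Cluster-9520.1249 of class B, with 3.82 FPKM in adult replicate 2 but 0.6 in nymph replicate 3, was not tested. Cluster-5741.0, matching scavenger receptor class F member 2, was at 4.88, 5.19 and 1.72 FPKM in nymph replicates 1, 2 and 3 and listed at 0 in every adult library (fitted log2 difference -2.08 ± 0.66 SE, limma adjusted p = 0.314).

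In the Toll pathway, both ligands had positive differences, while receptors and the Dorsal factor lay on both sides of 0, and 0 of these clusters passed the test (limma). Spaetzle (Cluster-9520.2317), the Toll ligand, was at 6.42, 18.8 and 36.7 FPKM in adult replicates 1, 2 and 3 and at 1.6, 5.71 and 1.91 in nymph replicates 1, 2 and 3. All adult libraries lay above all nymph libraries, at a rescaled FPKM of 19.2 ± 6.76 (SD, n = 3) against 2.56 ± 1.43, and the log2 difference was 2.51 ± 0.57 SE (limma adjusted p = 0.165). The gap depends on the scaling. In deposited FPKM it was narrow, from 5.71 in nymph replicate 2 to 6.42 in adult replicate 1. With libraries set to an equal total, the stages overlapped (log2 difference 2.05, limma adjusted p = 0.998). Each adult library held at least 94 fragments of it and each nymph library at most 114. Spaetzle 3 (Cluster-5732.0), a relative of it, was at 1.32, 0.69 and 20.3 FPKM across adults and 0.27, 0.43 and 1.4 across nymphs, with overlap (log2 difference 1.60 ± 0.92 SE, limma adjusted p = 0.707). For both ligands the highest library was adult replicate 3.

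Of 6 Toll receptor clusters, 4 were tested and 0 passed, with 1 at an unadjusted p under 0.05 (limma), against 9.05% of all tested clusters. That cluster, Cluster-10998.0, met the filter through the nymph libraries alone. The longest Toll match, Cluster-9520.5193 of 3876 bases with leucine-rich repeats and a TIR domain, was at 2.02, 8.57 and 7.69 FPKM across adults and 6.57, 2.75 and 1.9 across nymphs (log2 difference 0.73 ± 0.62 SE, limma adjusted p = 0.767). Cluster-9520.2923, which matches Toll-like receptor 2 in Swiss-Prot and the photoreceptor adhesion protein chaoptin in NR, was at 1.42, 3.67 and 7.51 FPKM across adults and 3.15, 3.12 and 1.15 across nymphs (limma adjusted p = 0.793). Cluster-4599.0, matching Tollo, is only 380 bases long. It was at 38.6 FPKM in adult replicate 3, 16.2 in nymph replicate 2 and 1.01 in adult replicate 2 and listed at 0 elsewhere (limma adjusted p = 0.915). Levels of Toll and chaoptin-like clusters thus overlapped between the stages, and the Tollo match was confined to 3 of the 6 libraries.

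The Toll-like receptor 7 match Cluster-10998.0, which holds a TIR domain, was at 9.18, 5.1 and 1.23 FPKM in nymph replicates 1, 2 and 3 and listed at 0 in every adult library (fitted log2 difference -2.24 ± 0.75 SE, limma adjusted p = 0.347). A second cluster with the same leading match, Cluster-6908.0, carries leucine-rich repeats and was at 12.6 FPKM in nymph replicate 1 and 0.57 in adult replicate 2. The Toll-like receptor 6 match Cluster-12847.0 had 1.82 FPKM in adult replicate 2, 2.17 in nymph replicate 1 and 0 elsewhere. TIR domains lie inside the cell and leucine-rich repeats outside it in Toll receptors, and whether both clusters belong to 1 transcript cannot be told apart here. Dorsal (Cluster-9520.488), with a Rel homology domain, was at 0.76, 4.06 and 2.93 FPKM across adults and 1.27, 4.04 and 6.55 across nymphs (log2 difference -0.29 ± 0.70 SE, limma adjusted p = 0.914). The Toll match Cluster-9520.5193 and Dorsal were thus at single-digit FPKM in both stages. The Tollo match Cluster-4599.0 reached 38.6 FPKM in adult replicate 3, but at 380 bases its FPKM compares poorly with those of longer clusters. Log2 differences of Cluster-9520.5193 and Dorsal were 0.73 and -0.29, against 5.83 for the antibacterial peptide Cluster-9520.6461. These differences were not compared by a test, and RNA levels do not measure the activity of the pathway.

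Phenoloxidase, which oxidises phenols to melanin precursors, was near the lower end of detection. Cluster-4974.0 was at 1.7, 4.37 and 0 FPKM across adults and 0, 0.9 and 0 across nymphs, and Cluster-12379.0, with the same leading match, at 2.92 in adult replicate 2 and 4.46 in nymph replicate 1. Neither was tested.

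Across all 31 tested members, 1 passed the test in either direction, against 0.234% of all 11961 tested clusters, and it was the antibacterial peptide Cluster-9520.6461. A single call is too few to read as a property of the members. After rescaling, stages did not overlap, with adults above, in 6 of 31 members, against 3.95% of all tested clusters. They were both antibacterial peptides, the C-type and B-type lysozymes, Spaetzle and scavenger receptor Cluster-9520.6767. With libraries set to an equal total, the stages of Spaetzle and of Cluster-9520.6767 overlapped. Nymphs were above adults in 5, against 10.1%: the C-type lectin, Cluster-10998.0, the class F scavenger receptor, a Sog match (Cluster-5415.0) and the palmitoyl-protein thioesterase Cluster-8109.0. A cluster above 0 in every adult library and listed at 0 in every nymph library occurred in 2 of 47 members, against 0.207% of all clusters, and the reverse in 4, against 0.881%. Of these 31, 6 met the filter through 1 stage only and could not overlap: 2 of the adult-high and 4 of the nymph-high clusters. Among the other 25 members, adults were above nymphs in 4 and nymphs above adults in 1, the thioesterase, against 3.48% and 7.79% of the 11569 tested clusters that reached an FPKM of 1 in both stages. These counts describe the members that passed the filter and not all 47. Of the 31, 14 lay above 0 and 17 below it, with a median log2 difference of -0.32 against -0.29 over all tested clusters. With the antibacterial peptide clusters counted as 1, 13 of 30 lay above 0 and adults were above nymphs in 5. At an unadjusted p under 0.05 there were 12 members of 31 by limma, against 9.05% of all. These 12 include all 6 that met the filter through 1 stage only, whose stages had to differ. The count is therefore given as a description.

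Immune-named and other members were also counted apart. The split was made after the values had been seen, so these counts are a description. Of the 21 immune-named clusters that entered the test, 13 lay above 0, against 38.4% of all tested clusters, with a median of 0.61. With the antibacterial peptide clusters counted as 1, it was 12 of 20. Of the 21, 5 met the filter through 1 stage only, 2 in adults and 3 in nymphs, so their side of 0 was fixed. Of the 10 others, 9 lay below 0, with a median of -0.68, and the side of Cluster-5415.0 was likewise fixed. All 8 tested clusters with the term thioester, the thioester-containing protein among them, lay below 0, from -1.90 in Cluster-8109.0 (palmitoyl-protein thioesterase 1, a lysosomal enzyme) to -0.32 in Cluster-9520.3865 (ubiquitin thioesterase otubain-like), and none passed the test (limma adjusted p from 0.403 upwards). Cluster-8109.0 was at 0, 1.62 and 0 FPKM across adults and 3.13, 5.28 and 4.2 across nymphs. Cluster-9520.5979 (acyl-protein thioesterase 1) was at 1, 9.24 and 11.3 FPKM across adults and 3.19, 12.7 and 11.8 across nymphs, and Cluster-9965.0 (acyl-coenzyme A thioesterase 13) at 0, 3.83 and 9.01 and at 3.94, 3.56 and 5.41. The bacterial-type Cluster-11337.0 was at 4.11, 0.26 and 0 FPKM across adults and 2.33, 5.92 and 0 across nymphs. The LysM cluster, Cluster-6088.0, was at 0, 4.25 and 5.07 FPKM across adults and 2.29, 1.83 and 5.51 across nymphs. The patterning and homeobox matches were listed at 0 in the adult libraries apart from 1.11 FPKM of the tolloid-like Cluster-8005.0 in adult replicate 2. Of these, Cluster-3652.0 (Sog) and Cluster-11583.0 (homeobox) reached 26.5 and 27.2 FPKM in nymph replicate 2 at lengths of 348 and 301 bases.

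**Figure D4:**
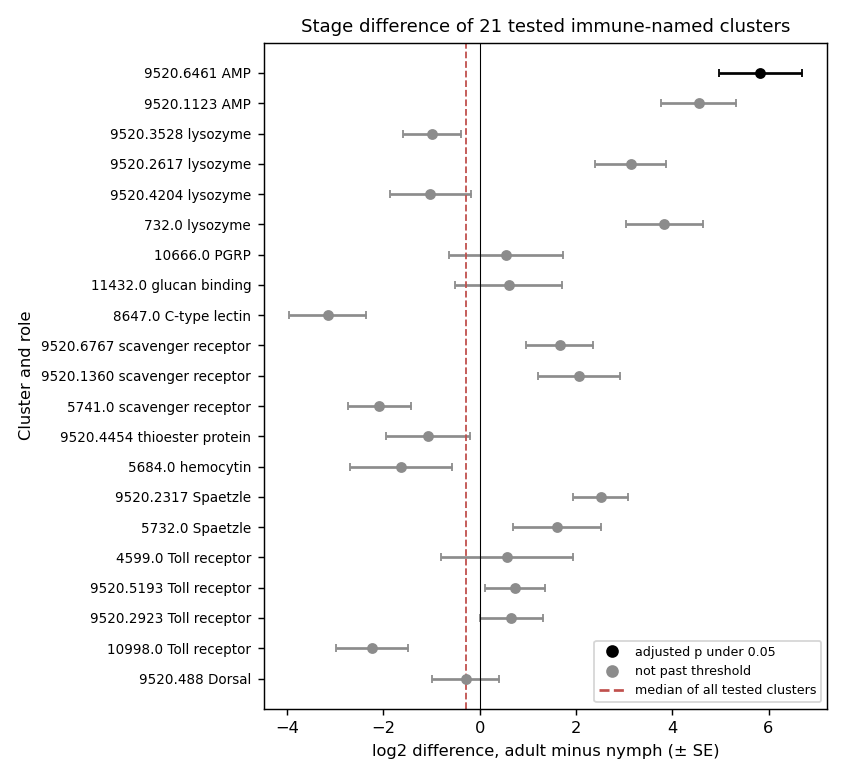
Log2 difference, adult minus nymph, with its SE (x axis) for the 21 tested immune-named clusters (y axis, by role). Black marks the 1 cluster past the threshold, grey the others, and the dashed line the median of all tested clusters at -0.29. Antibacterial peptides, 2 lysozymes and both Spaetzle clusters lie to the right, and the C-type lectin, Toll-like receptor 7 match and class F scavenger receptor to the left. Cluster-9520.1123, Cluster-732.0, Cluster-8647.0, Cluster-10998.0 and Cluster-5741.0 met the filter through 1 stage only. Their side of 0 was therefore fixed, and their distance from it depends on the pseudocount.

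The rest of the immune pathways, taken from 6 wider lists of patterns on the same descriptions, held 0 clusters past the threshold (limma). An unadjusted p under 0.05 was found for 1 of 16, 1 of 7, 1 of 10 and 3 of 12 tested clusters (limma). These are the Toll and IMD, serine protease inhibitor, phagocytosis and clip protease lists, in that order. The JAK/STAT and JNK and the melanin enzyme lists had 0. The share over all tested clusters was 9.05%. Of all tested clusters, 38.4% lay above 0, with a median of -0.29. Of 20 Toll and IMD signalling clusters, 16 were tested, with 6 above and 10 below 0 and a median of -0.39. The kinase Pelle (Cluster-9520.2247), which relays the Toll signal, was at 2.92, 22.6 and 15.4 FPKM across adults and 8.45, 18.8 and 11.2 across nymphs (log2 difference 0.04 ± 0.49 SE, limma adjusted p = 0.985). Akirin (Cluster-9520.6075), a nuclear cofactor of NF-kappaB targets, was at 8.53, 35.1 and 44.2 FPKM across adults and 14.6, 40.9 and 27.5 across nymphs (log2 difference 0.20 ± 0.51 SE, limma adjusted p = 0.922). Both were detected in all 6 libraries, with overlap of the stages. In the JAK/STAT and JNK list, 2 of 8 tested clusters lay above 0, with a median of -0.47. STAT (Cluster-9520.1759), its transcription factor, was at 0.17, 3.57 and 4.28 FPKM across adults and 3.71, 8.15 and 6.09 across nymphs (log2 difference -1.20 ± 0.65 SE, limma adjusted p = 0.669), with all nymph libraries above all adult libraries after rescaling but not in deposited FPKM. The inhibitor SOCS2 (Cluster-9520.7367) was at 0.25, 11.8 and 1.05 FPKM across adults and 5.4, 2.5 and 1.44 across nymphs (limma adjusted p = 0.940).

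Serine protease inhibitors, mostly serpins, which restrain the protease cascades, had 2 of 7 tested clusters above 0 and a median of -1.05. Without Cluster-9520.482, a match to dipetalogastin, an inhibitor that is no serpin, 1 of 6 lay above 0. Cluster-9520.5566 was at 0, 36.3 and 0 FPKM across adults and 9.3, 26.4 and 17.8 across nymphs (limma adjusted p = 0.537). It is the cluster of this list with an unadjusted p under 0.05 (limma). Its 306 bases barely exceed the fitted offsets of 286 and 278 bases in adult replicates 1 and 3, where it is listed at 0. Cluster-9520.5567, of 3083 bases, was at 3.67, 38.8 and 14.8 and at 26.7, 22.4 and 20.3 (limma adjusted p = 0.801). Both match serpin B4-like and may not be independent. Of 3 melanin enzyme clusters, 1 was tested, the yellow match Cluster-9520.7025 (log2 difference -0.55 ± 0.87 SE, limma adjusted p = 0.859), and the decarboxylase Cluster-1331.0 was at 6.59 and 33.3 FPKM in adult replicates 2 and 3 and listed at 0 elsewhere. The phagocytosis list, in which the term integrin also matched disintegrins, had 6 of 10 tested clusters above 0 and a median of 0.76. Its most abundant clusters were the engulfment receptor Draper (Cluster-9520.2342), at 0.71, 59.9 and 7.79 FPKM across adults and 4.18, 1.15 and 0.6 across nymphs (limma adjusted p = 0.605), and galectin-8 (Cluster-9520.5075), at 1.02, 3.23 and 11.4 and at 8.22, 9.21 and 9.62 (limma adjusted p = 0.729).

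Clip-domain proteases, the class that activates Spaetzle and phenoloxidase, had 8 of 12 tested clusters above 0 and a median of 0.55, and 1 cluster of the list is protein snakeskin, caught by the pattern alone. Their most abundant clusters have venom serine proteases as their NR match, so the list overlaps with the venom itself. Cluster-9520.4451 was at 967, 5469 and 3826 FPKM across adults and 8193, 12525 and 5162 across nymphs (log2 difference -1.26 ± 0.64 SE, limma adjusted p = 0.628), and after rescaling, not before, all nymph libraries lay above all adult libraries. Cluster-9520.4491 was at 1329, 16227 and 1928 FPKM across adults and 4476, 1919 and 1069 across nymphs, with overlap (log2 difference 1.03 ± 0.88 SE, limma adjusted p = 0.767). These levels stand far above those of any immune member. The phenoloxidase-activating enzyme match Cluster-9520.4083, chosen after its values were seen, was at 11.6, 265 and 4.5 FPKM across adults and 1.01, 0.45 and 0.21 across nymphs, without overlap (log2 difference 4.34 ± 1.12 SE, limma adjusted p = 0.226).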

How the data were processed

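The deposited table gives FPKM made by the authors, 1 column per library, for transcript clusters with their best database matches. Per the submitters' processing notes, the tools included HISAT2 2.0.5 and featureCounts 1.5.0-p3. The source of the FPKM among these tools is not stated. Per the labels' protocols, RNA was isolated with TRIzol and libraries were made with a NEBNext Ultra kit. Cluster names are those of the best match, and no sequence or genomic position of a cluster was used here.

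Fragments were recovered by fitting, per library, the mapped total and a length offset from clusters between 500 and 1100 bases long whose FPKM was under 3. On clusters between 1100 and 1500 bases, kept aside from the fit, 99.4% to 99.8% of values came within 0.15 of whole numbers, where chance gives 30.0%. The offsets ran from 217 to 293 bases, which weighs most on short clusters. No counting intervals were computed.

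The stage test was limma (version 3.58.1, R 4.3.3, trend and robust) on log2(rescaled FPKM + 1), stage as the only term, clusters kept if FPKM reached 1 in 3 or more libraries, and Benjamini-Hochberg adjusted p under 0.05. The log2(value + 1) scale understates the change of low clusters. The factor of a library was its median ratio to the per-cluster geometric mean, taken on the 4653 clusters that are above 0 everywhere. Both steps were tested on simulated data first. The members, lists and tests were chosen with earlier results of these data known. The text names members past the threshold, the 3 most abundant and the most positive and negative of each role, those averaging 10 FPKM or more in 1 stage and listed at 0 in the other, and the 2 most abundant clusters per wider list. Cluster-12847.0, Cluster-6908.0, Cluster-6018.0, Cluster-10944.0, Cluster-11337.0, Cluster-9520.1249 and Cluster-9520.4454 were named after their values were seen. Alternatives were other pseudocounts, filters and scalings, a plain limma prior, the replicate number as a block, clusters of at least 400 bases, each library left out, and members left out by name.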

Additional observations from a re-analysis of the deposited data

How the results depend on the processing

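The count of members past the threshold was 1 and stayed 1 with libraries set to an equal total, with the replicate block, without members named for a moth, mouse, human or dorsal-ventral match and, as chosen after seeing the data, without all 14 members named for other things. It was 0 with a pseudocount of 0.1 and without trend and robust, and 2, with Cluster-9520.1123, for a pseudocount of 0.5, FPKM as deposited and clusters of at least 400 bases. It was 4 with no filter and 4 with a mean FPKM of at least 1, adding Cluster-9520.1123, Cluster-732.0 and Cluster-9520.2617. With single libraries left out it ran from 0 to 2, with 2 without adult replicate 3 and 0 without any of the other 5. Over all clusters the count was 28. It was 12 with a pseudocount of 0.1, 104 with no filter, 65 with a mean FPKM filter, 72 on FPKM as deposited and from 1 to 54 with single libraries left out, and 29 with the replicate block. Deviations of same-numbered libraries correlated at 0.165, -0.043 and 0.213 for numbers 1, 2 and 3. Those of differently numbered libraries correlated at -0.275 to 0.151. Adult replicates 1 and 3 correlated best with their own number and adult replicate 2 did not. With 3 libraries per stage, these values cannot tell whether the numbers pair the libraries. Of 355 log2 differences of 26 named members under 15 settings, 333 kept direction and side of the threshold, 10 passed it newly, 7 no longer passed and 5 turned direction, all 5 with a library left out. Over the libraries left out, the log2 difference ran from -0.18 to 1.68 in Cluster-10666.0, from -0.058 to 1.59 in Cluster-4599.0, from -0.93 to 0.11 in Cluster-6088.0 and from -0.74 to 0.15 in Cluster-9520.488. Leaving out a library also lowers the number of clusters that reach the filter; other causes were not tested. Cluster-9520.1123 and Cluster-732.0 were not tested with an adult library left out, since they then fell short of the filter.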
